A study of Mus musculus with 24 samples.

Results

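The interaction of light and psilocybin was measured as the effect of psilocybin in light less its effect in the dark, over all 24 RNA libraries of mouse visual cortex in the series. The libraries came from male C57BL/6J mice 8 weeks of age that were kept on a reversed light cycle and killed in their dark phase, with 1 library per mouse and 6 mice per group. Dark mice received PBS and stayed in the dark, psilocybin-dark mice received 5 mg/kg psilocybin and stayed in the dark, light mice received PBS and were placed in light for 2.5 h, and psilocybin-light mice received 5 mg/kg psilocybin and were placed in light for 2.5 h. Light exposure follows the headings of the supplementary count table, in which libraries 1 to 6 are dark, 7 to 12 psilocybin-dark, 13 to 18 light and 19 to 24 psilocybin-light. The sample labels name the drug of each library as these headings do but give the reverse for light. Under the labels the sign of each interaction turns and its test stays as it is. The effects of psilocybin in dark and in light would trade places, and the effects of light would turn their sign. Libraries 19 to 24 would then be psilocybin in the dark and not the combination.

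Psilocybin is converted in the body to psilocin, an agonist of serotonin receptors whose main target in the cortex is the 5-HT2A receptor on excitatory neurons. Light after darkness drives the neurons of the visual cortex and switches on early-response genes: first transcription factors such as Npas4, Fosb and Egr1, then effectors that act at synapses or are secreted. An interaction of 0 on the log2 scale means that the fold changes of the 2 treatments multiply in mice given both. A value below 0 means that psilocybin-light mice were lower than that product, which happens when psilocybin raises a gene in the dark and adds little in light, and equally when a gene is lowest in psilocybin-light mice. A value above 0 is the mirror image.

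Total counts ranged from 13552516 to 17906994 per mouse. Several libraries stood apart. The summed level of 14 cerebellar markers was 3054, 6230, 3049 and 1982 CPM (counts scaled to a common library size) in dark mice 1 and 6, psilocybin-dark mouse 12 and light mouse 18, and 267 to 456 CPM in the other 20. A list of 19 hippocampal genes lay between 1152 and 1541 CPM in dark mice and between 714 and 1028 CPM in the other 18, without overlap. Markers of cortical glutamatergic neurons were present in every library, at 3686 to 8458 CPM in dark mice and 7269 to 10369 CPM in the others, and the lowest values were those of dark mice 1 and 6. In bulk tissue, fewer cells of a type and less RNA per cell cannot be told apart.

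**Figure D1:**
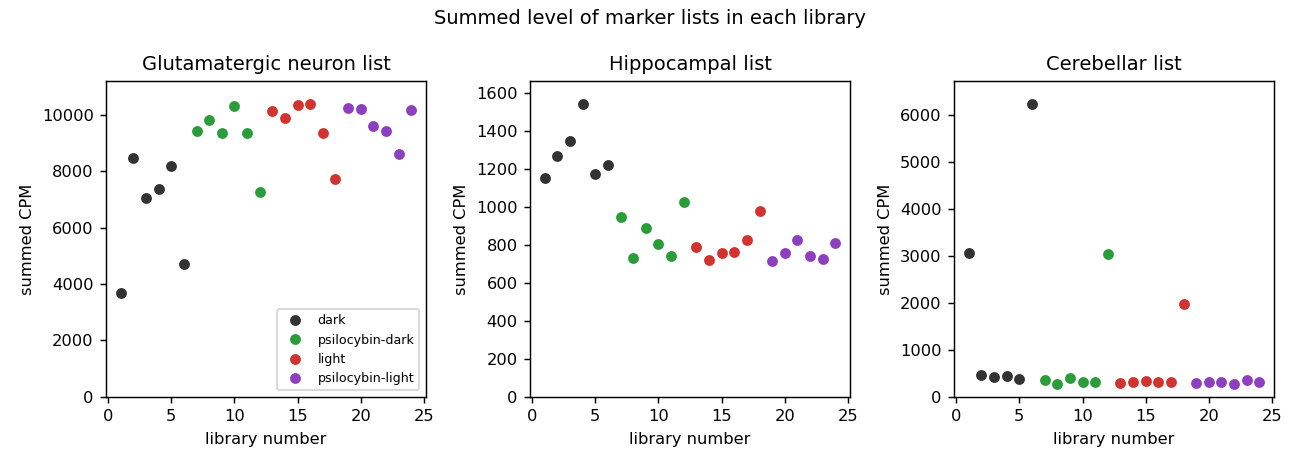
Summed level of 3 marker lists in each of the 24 libraries, in CPM, against library number, with 1 point per mouse and colours for the 4 groups. The dark mice hold the 6 highest hippocampal values (1152 to 1541 CPM), and mice 1, 6, 12 and 18 hold the 4 highest cerebellar values (1982 to 6230 CPM).

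Of 14464 genes tested, 1266 (8.75%) had an interaction at an edgeR adjusted p under 0.05, 703 (4.86%) below 0 and 563 (3.89%) above 0. The median size was 0.58 on the log2 scale, and 330 genes reached 1 or more, 194 of them below 0. Fitted levels were lowest in dark mice for 607 of the 703 genes below 0 (86.3%), against 33.9% of all genes tested. They were highest in dark mice for 530 of the 563 above 0 (94.1%), against 39.9%. Psilocybin-light mice were lowest for the other 96 and highest for the other 33. In 217 of the 703 genes (30.9%) every dark mouse lay below all 18 others, against 1.92% of all genes tested, and in 120 of the 563 (21.3%) every dark mouse lay above them, against 1.36%. Every psilocybin-light mouse lay below all others in 3 of the 703 genes, against 0.214% of all genes tested, and above all others in 0 of the 563, against 0.0691%. A call below 0 by its definition favours genes low in dark or psilocybin-light mice, and a call above 0 genes high in them. The genes were also called on these same mice. These shares thus describe the calls and are not separate evidence.

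The 4 single comparisons behind the interaction differed widely in their number of calls. Psilocybin changed 3575 genes in the dark (24.7%), 1719 higher (11.9%) and 1856 lower (12.8%), and 88 in light (0.608%), 8 higher (0.0553%) and 80 lower (0.553%). Light changed 4611 genes in mice given PBS (31.9%), 2229 higher (15.4%) and 2382 lower (16.5%), and 923 in mice given psilocybin (6.38%), 376 higher (2.60%) and 547 lower (3.78%). Both together changed 5551 genes against dark mice (38.4%), 2513 higher (17.4%) and 3038 lower (21.0%). The 1719 genes that psilocybin raised in the dark had a median log2 change of 0.43 there and of 0.04 in light, where other mice were compared. Of these genes, 65.4% were above 0 in light, against 47.8% of all genes tested, and 1 was called higher. The 1856 genes that it lowered in the dark had medians of -0.37 in the dark and -0.04 in light, and 17 of them were called lower in light. By sign 60.8% of the 1856 lay below 0 in light, against 52.2% of all genes tested. Light raised 2229 genes under PBS, by a median of 0.39, and these moved by 0.09 under psilocybin, with 188 called higher. By sign 74.3% of the 2229 lay above 0 under psilocybin, against 48.1% of all genes tested. For the 2382 genes lowered under PBS the medians were -0.36 and -0.10, with 247 called lower. By sign 75.6% of the 2382 lay below 0 under psilocybin, against 51.8% of all genes tested. Between the psilocybin comparisons 1 gene was called in opposite directions: Tspan31, a tetraspanin, was raised by psilocybin in the dark (0.18) and lowered in light (-0.24). Between the light comparisons, 13 genes raised under PBS were lowered under psilocybin, Bdnf and Mapk4 among them, and 4 lowered under PBS were raised.

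**Figure D2:**
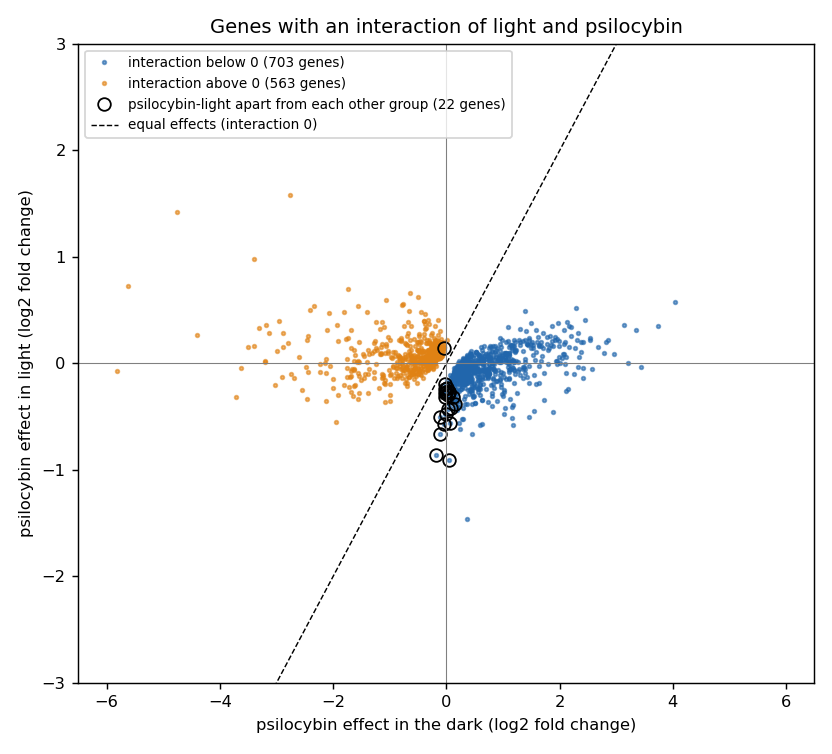
The log2 change with psilocybin in the dark (horizontal) against that in light (vertical, a different scale) for the 1266 genes with an interaction, 1 point per gene. Most points lie near 0 on the vertical axis, far from the dashed line of equal effects, and the 22 circled genes, of which 21 lie below 0 in light, are those in which psilocybin-light mice differed from each of the other 3 groups.

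The calls moved with the hippocampal list. In an edgeR fit with the mean log2 level of the list as a covariate, 0 genes passed the adjusted threshold, 1448 had an unadjusted p under 0.05 against 3586 without the covariate, and 1259 of the 1266 kept their sign with a median size of 0.32. The covariate was run in edgeR alone. Since dark mice and the other 18 do not overlap in this list, its level and the state of dark mice cannot be told apart. The count was higher without the libraries with high cerebellar markers: without mice 1, 6, 12 and 18, left out together after the data had been seen, 3810 genes had an interaction (1972 above 0, 1838 below 0), 1240 of the 1266 among them. Of single mice, leaving out dark mouse 6 gave 2092, psilocybin-dark mouse 10 gave 836 and psilocybin-dark mouse 11 gave 834.

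Early-response transcription factors were among the genes called below 0. Of 24 tested, 6 were called below 0 (Ier5, Egr1, Crem, Egr3, Npas4 and Fosb) and 1 above 0 (Jun), 29.2% in all against 8.75% of all genes. By sign alone 20 of the 24 lay below 0, and the median interaction of the list was -0.48, against 0.00 for all genes. Psilocybin raised 15 of the 24 in the dark, against 11.9% of all genes tested, and 0 in light in edgeR, against 0.0553%. The 0 in light held in DESeq2 and at an unadjusted p under 0.05. Light raised 15 under PBS, against 15.4% of all genes, and 5 under psilocybin, against 2.60%. For 13 of the 24, psilocybin-light mice had the highest fitted level, as they had in 24.4% of all genes tested.

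Npas4, an activity-dependent factor of neurons, lay between 36.7 and 145 normalized counts in dark mice (median 107), between 249 and 353 in psilocybin-dark mice (median 332), between 351 and 697 in light mice (median 502) and between 347.5 and 1037 in psilocybin-light mice (median 527). Every dark mouse lay below every other mouse, and the psilocybin-light range held all of the light range, with psilocybin-light mice 20 and 21 above every light mouse. The interaction was -1.42 ± 0.39 (log2 ± SE, adjusted p = 0.0282), made of a rise with psilocybin of 1.70 in the dark and a change of 0.29 in light (adjusted p = 0.848). Without dark mice 1 and 6, the lowest at 36.7 and 48.4, the interaction was -1.06 (edgeR adjusted p = 0.0260). On the count scale, psilocybin-light mice averaged 616 ± 257 (SD, n = 6), where adding the 2 separate gains would give 725 and multiplying the 2 folds would give 1639. The difference from the sum was -109 ± 120 (SE) and did not pass limma's test on the linear scale (adjusted p = 0.606). So the call for Npas4 held on the log2 scale alone, and it was also lost without light mouse 14 or psilocybin-light mouse 24.

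Egr1, a zinc-finger factor, averaged 2285 ± 924 in dark mice, 7133 ± 1534 in psilocybin-dark mice, 8417 ± 1300 in light mice and 9442 ± 1839 in psilocybin-light mice. Again the dark mice, with at most 3405, stood below the 4485 or more of the other 18. Its interaction was -1.48 ± 0.32 (adjusted p = 0.00756), and it was also below the sum of the separate gains, with a difference of -3823 ± 1175 counts (SE; linear-scale adjusted p = 0.0369). Without dark mice 1 and 6, the lowest at 903 and 1686, the log2 interaction of Egr1 was -1.20 (edgeR adjusted p = 0.00121). Egr3 (2193, 7831, 7697 and 8673 in the same order) had an interaction of -1.66 ± 0.46 (adjusted p = 0.0266), which was lost without psilocybin-dark mouse 10. Ier5, an early gene that regulates heat shock factor, had one of -1.67 ± 0.32 (adjusted p = 0.00390).

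Fosb, an AP-1 subunit, had a median of 495 in dark mice, 872 in psilocybin-dark mice, 746 in light mice and 685 in psilocybin-light mice. The psilocybin-light mice (489.5 to 843) spanned the light range (706.5 to 828) and overlapped both the psilocybin-dark (555.5 to 961) and the dark range (126 to 547). Dark mice 1 and 6 were the lowest, at 134 and 126, with the other dark mice at 481 to 547. Without mice 1 and 6 the interaction was -0.84 (edgeR adjusted p = 0.00237). With all mice it was -1.25 ± 0.38 (adjusted p = 0.0429). It lay close to the threshold, and passed in 9 of the 24 fits that left out a mouse, those without mice 1 to 6, 12, 18 or 24. Jun, another AP-1 subunit, ran the other way: dark mice, at 1394 to 2468, lay above all others, at 808 to 1375, and the interaction was 0.85 ± 0.21 (adjusted p = 0.0172).

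Among the early-response effectors, 11 of 29 tested (37.9%) were called below 0 and 0 above in edgeR, as in DESeq2 and at an unadjusted p under 0.05 above 0, and 25 of the 29 lay below 0 by sign, with a list median of -0.63. Psilocybin raised 21 of the 29 in the dark, against 11.9% of all genes tested. In light it raised 0 in edgeR, as in DESeq2, with 2 higher at an unadjusted p under 0.05. Light raised 16 under PBS, against 15.4% of all genes. Arc, which drives the internalization of AMPA receptors, lay between 617 and 1454 in dark mice (median 1185), between 2159 and 8377 in psilocybin-dark mice (median 6221), between 4915 and 13567 in light mice (median 7071) and between 8352 and 14940 in psilocybin-light mice (median 9517). The dark mice stood below all others, and the psilocybin-light mice held the highest value and a range that overlapped both single treatments. Psilocybin multiplied Arc by 5.42 in the dark and by 1.33 in light, and light by 7.10 under PBS and by 1.74 under psilocybin, which gave an interaction of -2.03 ± 0.41 (adjusted p = 0.00554). Without dark mice 1 and 6, the lowest at 617 and 768, the interaction was -1.79 (edgeR adjusted p = 0.00396). On the linear scale the mean of 10248 was not called different from the 12541 of simple addition (difference -2293 ± 1921, SE, adjusted p = 0.472).

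Other effectors had their highest mean in psilocybin-dark mice. Bdnf, a neurotrophin, averaged 588 ± 138 in dark, 1216 ± 282 in psilocybin-dark, 848 ± 65.9 in light and 766 ± 146 in psilocybin-light mice. All 6 psilocybin-dark mice (816 to 1469) lay above the dark mice, and their lowest value alone fell within the light range (743 to 913). The interaction of -1.19 ± 0.22 (adjusted p = 0.00333) came with a fall of 0.67 when light was added to psilocybin (adjusted p = 0.0123), where light under PBS had raised Bdnf by 0.53 (adjusted p = 0.0133). Homer1, a scaffold of the postsynaptic density whose short form is induced by activity, averaged 3633 ± 1641, 10952 ± 2889, 9173 ± 2121 and 8033 ± 1499 in the same order. Its mean with both treatments differed from the sum of the separate gains by -8458 ± 1722 counts (SE), and its log2 interaction was -1.78 ± 0.36 (adjusted p = 0.00554).

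Pcsk1, a convertase that processes prohormones, averaged 1201 ± 296 in dark, 2021 ± 364 in psilocybin-dark, 1511 ± 182 in light and 1406 ± 160 in psilocybin-light mice. Its interaction was -0.86 ± 0.20 (adjusted p = 0.0103), with a fall of 0.52 when light was added to psilocybin (adjusted p = 0.0245). Inhba, a subunit of activin, had an interaction of -1.57 ± 0.48 (adjusted p = 0.0427), which passed in 8 of the 24 fits that left out a mouse, those without mice 2, 4, 5, 6, 7, 12, 18 or 24. Ptgs2, the inducible cyclooxygenase, and Rgs4, a brake on G protein signalling, had interactions of -1.65 ± 0.40 and -1.40 ± 0.32 (adjusted p = 0.0146 and 0.0103), and in both every dark mouse lay below all others.

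**Figure D3:**
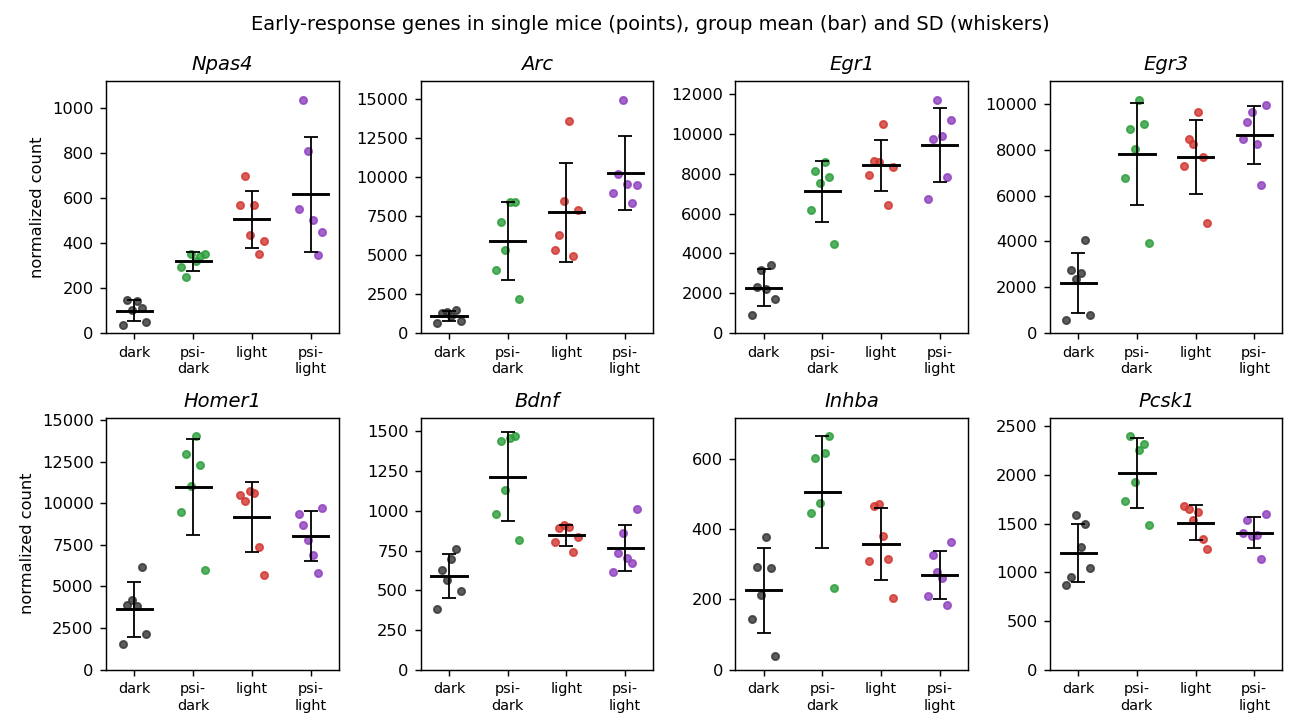
Normalized counts of 8 early-response genes (vertical axis, from 0) in single mice of the 4 groups (points; psi, psilocybin), with group means (bars) and SD (whiskers). In the top row psilocybin-light means are the highest, as for Arc at 10248, and in the bottom row psilocybin-dark means are, as for Bdnf at 1216.

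Early-response genes are known targets of CREB, which binds the cyclic AMP response element TGACGTCA (CRE) and its core TGACG. The 250 bases upstream of the RefSeq start sites (GRCm38.p6) were searched for both motifs on both strands, where each CRE also holds cores. The core was present for 29 of 39 early factors and effectors with an entry (74.4%), against 3287 of 10947 genes tested. Among all genes called below 0 the share was 35.2%, among those called above 0 27.2%, and among the 11 early genes called with an entry 54.5%. The CRE itself was present for 7 of the 39 and for 333 of the 10947 (3.04%). Among the 11 early genes called with an entry, 1 held a CRE. The CArG box was present for 2 of the 39, against 1.4% of the genes tested, and the EGR site for 1, against 1.19%. A match is a string of letters and not evidence of binding. Of the early genes described above with an entry, Ier5, Inhba, Jun and Ptgs2 held no core. Neither did the other start site of Homer1 or most of those of Bdnf. The promoter of Rgs4 held 2 cores and a start site of Bdnf held 1, and these are not printed. Only promoters with a match are printed. The promoters of 4 early genes described above are printed with the core, or the CRE, in capitals: Npas4 (chr19:4989972-4990221, minus strand), Fosb (chr7:19310046-19310295, minus strand), Homer1 (chr13:93303507-93303756, plus strand) and Pcsk1 (chr13:75089607-75089856, plus strand). Npas4 carries a core on each strand, Fosb 1, Homer1 3 in a row close to its start, and Pcsk1 a CRE with a further core downstream.
Npas4: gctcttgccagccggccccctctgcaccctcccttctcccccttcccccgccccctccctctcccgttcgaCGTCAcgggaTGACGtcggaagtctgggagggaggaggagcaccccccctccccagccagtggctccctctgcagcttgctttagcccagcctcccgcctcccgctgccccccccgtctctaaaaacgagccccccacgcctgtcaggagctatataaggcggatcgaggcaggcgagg
Fosb: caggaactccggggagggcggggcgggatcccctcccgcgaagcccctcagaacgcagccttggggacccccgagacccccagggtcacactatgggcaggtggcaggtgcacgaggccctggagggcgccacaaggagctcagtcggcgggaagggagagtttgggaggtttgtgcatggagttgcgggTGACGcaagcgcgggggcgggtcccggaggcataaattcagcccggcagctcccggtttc
Homer1: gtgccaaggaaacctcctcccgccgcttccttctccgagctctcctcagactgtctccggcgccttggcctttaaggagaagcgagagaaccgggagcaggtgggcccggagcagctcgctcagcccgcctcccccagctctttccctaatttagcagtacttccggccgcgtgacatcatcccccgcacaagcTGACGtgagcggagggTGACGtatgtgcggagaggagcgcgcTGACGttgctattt
Pcsk1: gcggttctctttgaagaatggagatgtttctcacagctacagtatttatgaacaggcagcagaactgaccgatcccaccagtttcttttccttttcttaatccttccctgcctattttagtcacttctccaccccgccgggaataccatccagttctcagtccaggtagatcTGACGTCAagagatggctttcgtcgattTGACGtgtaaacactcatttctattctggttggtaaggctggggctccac

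The genes with the smallest interaction p below 0 were led by Mapk4. This gene, which encodes the atypical kinase ERK4, lay between 1083 and 1680 in dark, 1944 and 2459 in psilocybin-dark, 1756 and 2156 in light, and 1561 and 1782 in psilocybin-light mice. Each treatment alone lifted it clear of the dark range, and with both it fell back to overlap with dark mice. The interaction was -0.94 ± 0.11 (adjusted p = 4.17e-04), and light lowered Mapk4 by 0.39 under psilocybin (adjusted p = 0.00482). Spry2 and Spred2, inhibitors of the Ras to ERK pathway, had interactions of -0.84 ± 0.12 and -0.77 ± 0.12 (adjusted p = 8.80e-04 and 0.00148). Spry2 was lowest in all 6 dark mice, and Spred2 was highest in psilocybin-dark mice (2301 ± 301) and near the dark level (1667 ± 202) in psilocybin-light mice (1583 ± 88.3). Etv6, an ETS family repressor, had one of -1.27 ± 0.18 (adjusted p = 8.80e-04). Numb, an inhibitor of Notch signalling (-0.80 ± 0.12), Etnk2, an ethanolamine kinase (-1.65 ± 0.24), and the unnamed genes C130074G19Rik (-1.97 ± 0.27) and 4933439C10Rik (-0.96 ± 0.14) had the same adjusted p, and in all 4 the dark mean was the lowest.

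Above 0, Slc6a15, a neuronal transporter of neutral amino acids, lay between 1152 and 1489 in dark mice and between 752 and 1052 in all others, and had an interaction of 0.71 ± 0.10 (adjusted p = 8.80e-04). Syt3, a calcium sensor of vesicle traffic, and Dgkg, a diacylglycerol kinase, had interactions of 0.45 ± 0.06 and 1.01 ± 0.16 (adjusted p = 8.80e-04 and 0.00150). Dgkg was at 2270 to 3436 in dark mice and at 983.5 to 1670 in the other 18.

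The largest interactions in size included those of several markers of other regions. Below 0, Mdfic2 was at 2.74 to 37.2 in dark mice and 104 to 229 in the others (-3.39 ± 0.50), Rspo1, a Wnt agonist of layer 4 neurons, at 5.48 to 59.9 and 68.1 to 303 (-2.87 ± 0.60), and Pdyn, the dynorphin precursor, at 26.5 to 184 and 282 to 554 (-2.28 ± 0.39). Above 0, Trh (thyrotropin-releasing hormone) lay between 6.47 and 1637 in dark mice and between 1.005 and 18.2 in the others, and Dlk1 between 8.22 and 1817 and between 2.37 and 50.25. In Trh 4 dark mice, and in Dlk1 5, exceeded all 18 others, and the rest lay within their range. Their interactions were 6.34 ± 1.62 and 5.75 ± 1.19 (adjusted p = 0.0187 and 0.00610). Fibcd1, a marker of hippocampal area CA1, was at 322 to 4785 in dark mice and 120 to 305 in the others (3.38 ± 0.57), and Dcn, an extracellular matrix proteoglycan, at 556.5 to 4811 and 103 to 546.5 (3.13 ± 0.67). In limma's test on the linear scale, Rspo1 and Trh did not pass (adjusted p = 0.0631 and 0.153), and Mdfic2, Pdyn, Dlk1, Fibcd1 and Dcn did. A list of 17 subcortical genes, with Trh among them, lay between 206 and 1340 CPM in dark mice and between 203 and 320 CPM in the others. With the hippocampal list, which holds Fibcd1, as a covariate, the interactions of Trh, Dlk1, Fibcd1 and Dcn were 4.27, 1.87, 1.93 and 1.49 (edgeR adjusted p = 0.532, 0.645, 0.388 and 0.562). The part of the subcortical list was not tested.

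Psilocybin-light mice differed from each of the other 3 groups in 22 genes (0.152%), 21 lower (0.145%) and 1 higher (0.00691%, Sdhb). Their log2 changes lay between -0.19 (Dpysl2) and 0.15 (Slc35e2) with psilocybin in the dark and between -0.17 (Dpysl2) and 0.21 (Kcnq1ot1) with light under PBS, where B4galt5 and Acin1 rose. The 21 lower genes were B4galt5, Acin1, Safb, Slc35e2, Pdia4, Top1, Fcho2, Zmat3, Elavl1, Crebbp, Pcyox1l, Plekhm1, Sox9, Hdac5, Ppig, Gtf2a1, Dnajc1, Dpysl2, Sf1, Ythdc1 and Kcnq1ot1. Acin1, Safb, Elavl1, Ppig, Sf1 and Ythdc1 encode RNA-binding or splicing proteins. B4galt5, which makes lactosylceramide, had the smallest interaction p of the 22: 854 to 925 in psilocybin-light mice, 890 to 1119 in dark, 1018 to 1147 in psilocybin-dark and 1026 to 1172 in light mice. It overlapped the lowest dark mouse alone, and its interaction was -0.43 ± 0.07 (adjusted p = 0.00148).

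Top1, Crebbp and Hdac5 are transcription coregulators that the study itself named from these mice, so their direction is not independent evidence. Top1, the type I topoisomerase, lay between 1582 and 1699 in psilocybin-light mice and between 1781 and 2203 in the other 18, without overlap. The interaction was -0.27 ± 0.07 (adjusted p = 0.0160), with a change with psilocybin of 0.00 in the dark and of -0.27 in light (adjusted p = 0.979 and 0.0114). Hdac5, a histone deacetylase, averaged 3111 ± 159 in psilocybin-light mice and 3517 to 3763 in the other groups (-0.31 ± 0.08, adjusted p = 0.0260), a call lost without light mouse 14. Crebbp, the histone acetyltransferase that binds CREB, averaged 619 ± 36.9 in psilocybin-light mice, 945 ± 83.5 in dark, 982 ± 31.3 in psilocybin-dark and 911 ± 224 in light mice (-0.61 ± 0.16, adjusted p = 0.0203).

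The light group was split in Crebbp. Light mice 17 and 18 were at 609 and 657, inside or next to the psilocybin-light range of 546 to 649, and the other 4 light mice were at 984 to 1160. Dpysl2, a protein of growing axons, showed the same: 1633 and 1685 in light mice 17 and 18, 3007 to 3579 in the other 4, and 1373 to 1679 in psilocybin-light mice. So did Elavl1, an RNA-stabilizing protein, with 623 and 726 against 928 to 1066, and the IGF-1 receptor gene Igf1r, with 1028 and 1060 against 1317 to 1676. Over the 21 lower genes, mice 17 and 18 both lay below the other 4 light mice in 14 (66.7%). The share was 44.1% among the 703 genes with an interaction below 0 and 33.8% among the 80 lowered by psilocybin in light. Of all genes tested it was 13.2%. Light mouse 18 is also among the mice with high cerebellar markers (1982 CPM). The cause of the split was not tested. These 2 libraries are the last of the light group by number and stand beside the psilocybin-light libraries, which are 19 to 24.

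Without light mice 17 and 18, left out together after the data had been seen, psilocybin-light mice stood apart in 98 genes (94 lower), 20 of the 22 among them, and 226 genes changed with psilocybin in light. Crebbp then had an interaction of -0.82 ± 0.08 (adjusted p = 1.78e-05) and Dpysl2 of -0.93 ± 0.09 (adjusted p = 1.42e-05). Both mice were chosen after their low values in such genes had been seen, which by itself enlarges these interactions. The p-values and counts of this fit are therefore not evidence for them. With all mice Dpysl2 was at -0.67 ± 0.20 (adjusted p = 0.0415). That call passed in 9 of 24 fits that left out a mouse, those without mice 1, 3, 4, 5, 6, 12, 17, 18 or 19. The count of 22 was itself sensitive to single mice, at 5 without psilocybin-light mouse 24, 6 without 19, 9 without 20, and 10 without light mouse 14 or 16. It was 11 without light mouse 15, 12 without light mouse 13 or psilocybin-light mouse 21, and 14 without psilocybin-dark mouse 11. It rose to 44 without light mouse 17 and 39 without 18.

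**Figure D4:**
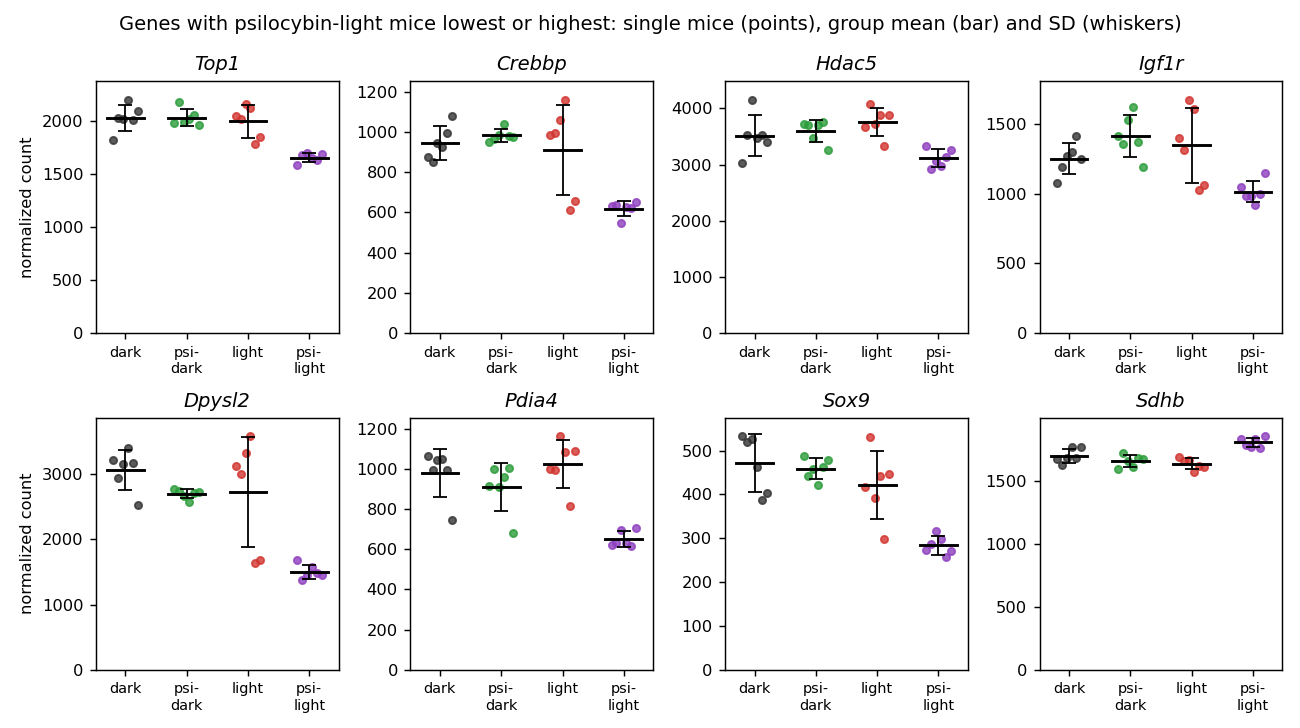
Normalized counts (vertical axis, from 0) of 8 genes in which psilocybin-light means were lowest or highest, in single mice of the 4 groups (points; psi, psilocybin), with group means (bars) and SD (whiskers). Psilocybin-light mice are clear of the others in Top1, and for Crebbp, Igf1r and Dpysl2 the 2 lowest light mice, 17 and 18, sit at the psilocybin-light level.

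Coregulators as a list held 9 calls in 50 genes (18.0%, against 8.75% of all genes), 8 of them below 0, with a median of -0.06. Tet3, which oxidizes methylated cytosine, was highest in psilocybin-dark mice, as Bdnf was. It averaged 1296 ± 255 there and 851 to 973 in the other groups, with an interaction of -0.78 ± 0.16 (adjusted p = 0.00632). Light under PBS, which raised Bdnf, was not called for Tet3 (0.17, edgeR adjusted p = 0.262). Psilocybin lowered 5 coregulators in light, against 0.553% of all genes, and light lowered 13 under psilocybin, against 3.78%. The list holds 3 of the genes in which psilocybin-light mice stood apart, which by definition count among the 5 and the 13. Top1, which the study named from these mice, is among these 3. The counts of this list are thus not independent evidence of an excess. In edgeR 0 were raised in either, where 2 of each were higher at an unadjusted p under 0.05 and DESeq2 raised 1 and 0. Hdac11, highest in dark mice at 3158, was the 1 coregulator called above 0 (0.47 ± 0.09, adjusted p = 0.00458).

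Endoplasmic reticulum chaperones were all below 0 by sign, 20 of 20 with a median of -0.15, although 1 was called (5.00%, against 8.75% of all genes). For 17 of the 20 the lowest fitted level was that of psilocybin-light mice, which held it in 29.4% of all genes tested. Psilocybin lowered 7 in light, against 0.553% of all genes. Pdia4, a disulfide isomerase, was the one called: 616 to 707.5 in psilocybin-light mice, 815 to 1162 in light mice, with dark mouse 6 and psilocybin-dark mouse 12 at 745 and 679 below the rest of their groups (993.5 to 1066 and 911 to 1003). The interaction was -0.55 ± 0.13 (adjusted p = 0.0145). Splicing regulators held 5 calls in 41 (12.2%), all below 0, and 37 of the 41 lay below 0 with a median of -0.13. Luc7l3 (-0.40 ± 0.10, adjusted p = 0.0207), Tra2a (-0.30 ± 0.08, adjusted p = 0.0208) and Clk2 (-0.33 ± 0.09, adjusted p = 0.0293) were highest in light mice.

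Subunits of oxidative phosphorylation lay on the other side: 69 of 75 were above 0 by sign with a median of 0.11, and psilocybin-light mice had the highest fitted level in 52, against 24.4% of all genes. The 6 calls among them (8.00%) were near the share of 8.75% for all genes. Psilocybin lowered 11 of the 75 in the dark, against 12.8% of all genes, and raised 1 in light, against 0.0553%. Light raised 9 under PBS, against 15.4% of all genes, and 33 under psilocybin, against 2.60%. Ndufa12, of complex I, averaged 939 ± 47.8 in dark, 799 ± 56.4 in psilocybin-dark, 884 ± 59.1 in light and 956 ± 28.4 in psilocybin-light mice (0.35 ± 0.07, adjusted p = 0.00554). Sdhb, of complex II, lay between 1761 and 1850 in psilocybin-light mice and between 1569 and 1764 in the other 18, an overlap with 2 dark mice (0.18 ± 0.04, adjusted p = 0.0140). Of 31 proteasome subunits 4 were called (12.9%), all above 0, while the list median was 0.02 and 12 of the 31 lay below 0 by sign. Psilocybin-light mice were highest in 27. Psmb1 averaged 1748 ± 85.3 in them and 1499 to 1559 in the other groups (0.21 ± 0.06, adjusted p = 0.040), and its call passed in 10 of the 24 fits that left out a mouse, those without mice 1, 3, 5, 6, 11, 12, 17, 18, 20 or 22. The study named Sdhb and Psmb1 from these mice.

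Serotonin receptors, the targets of the drug, differed in direction from the early genes where they were called. Htr2a, the main target of psilocin, averaged 420 ± 161 in dark, 552 ± 128 in psilocybin-dark, 421 ± 80.9 in light and 527 ± 83.8 in psilocybin-light mice, with wide overlap of all groups. Its interaction was -0.08 ± 0.29 (adjusted p = 0.910), and its sign turned in some of the other fits (-0.38 to 0.37). Of 12 serotonin receptors 3 were called in edgeR (25.0%, against 8.75% of all genes), all above 0, with 6 of the 12 below 0 by sign. DESeq2 called 4 above 0 and 1 below, and unadjusted p-values under 0.05 numbered 4 and 1. Htr2c lay between 337 and 2123 in dark mice and between 145 and 467 in the others (2.30 ± 0.51, adjusted p = 0.00832), and Htr1d (2.90 ± 0.71) and Htr4 (1.49 ± 0.47) were also highest in dark mice, at means of 17.2 and 94.7. The interaction of Htr2c was 0.43 with the hippocampal covariate (adjusted p = 0.866).

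Of 27 markers of glutamatergic neurons 6 were called below 0 (22.2%, against 8.75% of all genes called). Above 0 there were 0 in edgeR, as in DESeq2 and at an unadjusted p under 0.05. By sign 20 of the 27 lay below 0, with a median of -0.49. The upper-layer factor Cux2 was at 611 to 1495 in dark mice and 2050 to 3074 in the others (-1.49 ± 0.27, adjusted p = 0.00303). Of 31 GABAergic markers 3 were called below 0 and 1 above (12.9%), whereas by sign 9 of the 31 lay below 0 and the median was 0.20. Lamp5 (-1.73 ± 0.33, adjusted p = 0.00377) and Npy (-1.08 ± 0.27, adjusted p = 0.0173) were lowest in dark mice and Nos1, the neuronal nitric oxide synthase, highest, at 2422 to 4442 against 542.5 to 1574 (1.61 ± 0.31, adjusted p = 0.00397). Of 19 hippocampal genes 4 were called in edgeR (21.1%, against 8.75% of all genes), all above 0, and 4 of the 19 lay below 0 by sign. DESeq2 called 5 above 0 and 1 below, and unadjusted p-values under 0.05 numbered 5 and 1. Of 17 subcortical genes, some of them chosen from earlier results of these mice, 8 were called above 0 (47.1%), and the median was 2.30. Calls above 0 numbered 2 of 13 thalamic markers (15.4%), and striatal markers held 1 call above 0 and 2 below in 13 (23.1%), against 8.75% of all genes.

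Among glial and vascular cells, 3 of 14 astrocyte markers were called (21.4%, against 8.75% of all genes), all below 0. By sign 7 of the 14 lay below 0, with a median of -0.03. Sox9, their defining transcription factor, lay between 258 and 317 in psilocybin-light mice and between 297.5 and 532 in the others (-0.53 ± 0.14, adjusted p = 0.0254). Of 17 vascular markers, Dcn alone was called (5.88%), above 0, while 16 of the 17 lay below 0 by sign with a median of -0.33. With all mice, the 17 oligodendrocyte, 13 microglial, 14 cerebellar and 6 choroid plexus markers held 0 calls in edgeR, as in DESeq2, with 1, 2, 0 and 1 of them at an unadjusted p under 0.05. Without mice 1 and 6, where 3078 genes were called in all, the calls numbered 5, 0, 4 and 1. Without mice 1, 6, 12 and 18, where 3810 were called, they numbered 7, 0, 3 and 1. Oligodendrocyte markers summed to 8802 CPM in dark mouse 1 and to 1508 to 3766 CPM in the other dark mice. With all mice, the smallest edgeR adjusted p among these markers was 0.0824 (Bmp4, of the oligodendrocyte lineage).

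Clock genes held 5 calls in 18 (27.8%, against 8.75% of all genes), 4 below 0 and 1 above. Rorb, called below 0 (-1.50 ± 0.30, adjusted p = 0.00505), is also counted among the glutamatergic markers. Bmal1, the activator of the core clock, lay between 537 and 707 in dark, 807 and 973 in psilocybin-dark, 726 and 882 in light, and 635.5 and 725 in psilocybin-light mice. It was thus raised by each treatment alone, by 0.43 with psilocybin and 0.33 with light, and by both together it differed from dark mice by 0.08 (adjusted p = 0.387), with an interaction of -0.69 ± 0.09 (adjusted p = 8.80e-04). Per3, a repressor of the clock, averaged 319 ± 27.6 in dark, 458 ± 32.3 in psilocybin-dark, 518 ± 51.1 in light and 557 ± 49.9 in psilocybin-light mice (-0.42 ± 0.10, adjusted p = 0.0149). Of 12 genes of the IGF system 3 were called (25.0%, against 8.75% of all genes). Igf1r (-0.59 ± 0.15, adjusted p = 0.0158) and Igfbp6 (-1.27 ± 0.28, adjusted p = 0.00848) were below 0 and Igfbp3 (0.87 ± 0.26, adjusted p = 0.0416) above. Of 20 glucocorticoid targets 2 were called (10.0%, near the share for all genes), Cdkn1a and Klf9, both below 0 (-1.19 ± 0.23 and -0.66 ± 0.17, adjusted p = 0.00381 and 0.0211). By sign 14 of the 20 lay below 0. Of 17 heat shock genes 0 were called in edgeR, with 2 at an unadjusted p under 0.05 and 2 called in DESeq2.

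**Figure D5:**
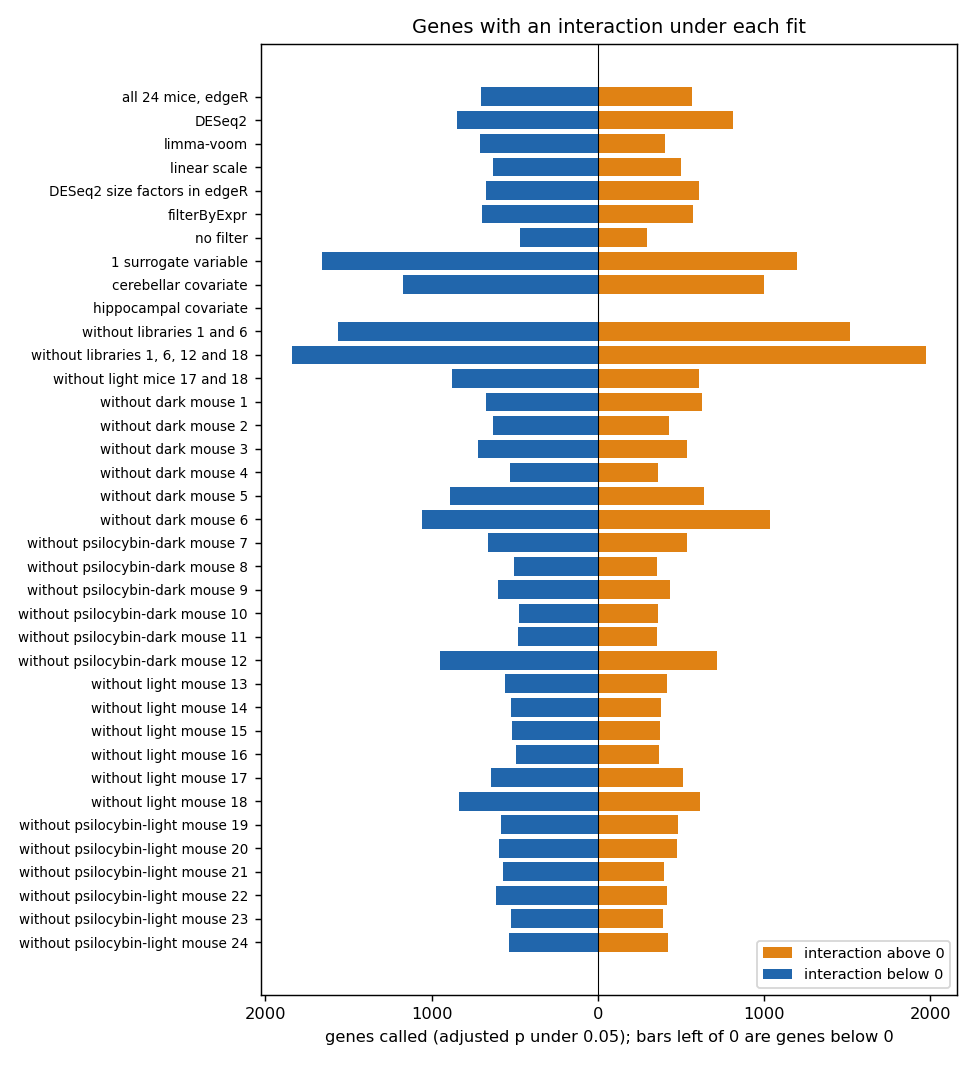
Number of genes with an interaction above 0 (right) and below 0 (left) at an adjusted p under 0.05 in each fit, in numbers of genes on the horizontal axis. All 24 mice gave 563 and 703, no genes passed with the hippocampal covariate, and leaving out dark mouse 6 gave the highest total of the single mice, 2092.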

How the data were processed

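RNA of the visual cortex, enriched by its poly-A tail, was sequenced in 24 mice. The authors trimmed reads with cutadapt, mapped them with STAR to GRCm39 (the submitters' processing notes name mm10) and counted them per gene with HTSeq. The deposited values are raw counts per library; the strand setting and annotation release are not given in the sources used here. Groups follow the headings of the supplementary count table, whose counts equalled the deposited ones in 1457 of 1457 genes compared.

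Genes with at least 30 counts in a library (14464) were fitted with edgeR 4.0.16 in R 4.3.3: TMM scaling, 1 term per group, a two-sided quasi-likelihood test and Benjamini-Hochberg adjustment over all genes, with an adjusted p under 0.05 as the threshold. For normalized counts, each library was brought to an effective size of 16058300, the mean of the 24, and CPM used the same sizes. Standard errors were taken from the F statistic. P-values measure the spread between these mice. Pairs of libraries within groups differed by more than sampling noise (chi-square per degree of freedom at least 3.09 over 60 pairs). On simulated counts for the interaction, over 14201 genes, 46 of 100 genes changed by 0.5 on the log2 scale and 79 of 100 changed by 1 were called, with 7 unchanged genes. Each gene was simulated independently, with equal group means except for the changed genes in psilocybin-light mice. Differences between libraries shared across genes, such as those in cerebellar markers, were not simulated, so the 7 may understate false calls in these data.

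Alternatives were DESeq2 1.42.0, limma 3.58.1 (voom and the linear scale), DESeq2 size factors, filterByExpr, no filter, covariates, 1 surrogate variable (sva 3.50.0), stricter thresholds, the sample labels' light exposure and mice left out. Names and positions are from GENCODE vM39 and promoters from RefSeq (GRCm38.p6). Named genes are those the study names, the 8 with the smallest p and the 8 largest per direction (mean count at least 100), genes with psilocybin-light mice apart, genes with opposite calls, and the first 5 of each list. Spred2, Inhba, Pcsk1, Ptgs2, Rgs4 and Htr2a met none of these rules and were added by choice. The members and lists were chosen with earlier results of these data known. Groups of 6 were screened for single outlying mice by Dixon's ratio (0.625). Plots used matplotlib 3.10.9 (Python 3.11.15).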

Additional observations from a re-analysis of the deposited data

Results flagged for a closer look

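The 1266 genes with an interaction, and the 22 in which psilocybin-light mice also stood apart from each other group, are differences between the effects of psilocybin in the dark and in light by the test of that difference, and their values stand above.

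Single mice were screened in 208 groups of 6, for 52 genes, and 7 values lay far from the rest of their group by Dixon's ratio, where chance gives about 1 in 20 groups. Arc was at 14940 in psilocybin-light mouse 21 and at 8352 to 10187 in the other 5. Crebbp was at 545.7 in the same mouse and at 621 to 649 in the others. Etv6 was at 336.8 in psilocybin-light mouse 23, against 409 to 441.5. Fibcd1 was at 291.8 in psilocybin-dark mouse 7, against 120 to 181, and Dcn at 466.3 in light mouse 18, against 130 to 212. Pdia4 was at 744.8 in dark mouse 6 and at 678.7 in psilocybin-dark mouse 12, against 993.5 to 1066 and 911 to 1003 in the rest of these groups; mice 6, 12 and 18 are among the 4 with high cerebellar markers. No explanation of these values was tested.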

How the results depend on the processing

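Main counts were 1266 genes with an interaction (563 above 0, 703 below 0) and 22 with psilocybin-light mice apart. With the hippocampal covariate all 4 were 0. The cause of this and of the changes below was not tested. The totals, then those above and below 0, were 320, 108 and 212 at an adjusted p under 0.01; 330, 136 and 194 at a log2 interaction of at least 1; 2858, 1200 and 1658 with 1 surrogate variable; 2170, 997 and 1173 with the cerebellar covariate; and 759, 293 and 466 with no filter. Without mice 1, 6, 12 and 18 they were 3810, 1972 and 1838. Leaving out pairs of dark mice gave 706, 302 and 404 (1 and 4), 3078, 1514 and 1564 (1 and 6), 757 and 282 above 0 (2 and 4), 783 and 295 above 0 (3 and 4), 2034 and 1064 above 0 (3 and 6), and 2410, 1199 and 1211 (5 and 6). Leaving out single mice gave totals of 834 to 2092, 355 to 1036 above 0 and 476 to 1056 below 0. By the sample labels' light exposure, 703 genes were above 0 and 563 below.

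Genes with psilocybin-light mice apart numbered 2 at an adjusted p under 0.01, 86 with 1 surrogate variable, 38 in DESeq2, 64 with the cerebellar covariate, 6 with no filter, 103 without mice 1, 6, 12 and 18, and 98 without light mice 17 and 18. Pairs of dark mice left out gave 9 (1 and 2), 9 (1 and 4), 58 (1 and 6), 13 (2 and 4) and 13 (3 and 5), and single mice 5 to 44. Psilocybin in light called 191 genes in DESeq2, 55 with filterByExpr, 22 with no filter, 190 without mice 1 and 6, 331 without mice 1, 6, 12 and 18, and 226 without light mice 17 and 18, against 88. Psilocybin in the dark called 5416 without mice 1, 6, 12 and 18, and light with psilocybin 463 with no filter, 1791 without mice 1 and 6, and 2434 without mice 1, 6, 12 and 18.

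DESeq2 called 1665 genes, limma-voom 1111 and limma on the linear scale 1127, with 1264, 1061 and 1035 of the 1266 among them. The single mice were left out in turn for 52 of the genes described, and of the 51 called among them 44 were called whichever of the 24 mice was left out. The interaction of Htr2a, not called, turned to 0.04 with the cerebellar and 0.37 with the hippocampal covariate. No paired analysis was possible because the library numbers 1 to 24 are shared by no groups. In the simulation, which held no differences between libraries shared across genes, 46 of 100 interactions of 0.5 were called, so smaller differences were often not detectable.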
